A study of Mus musculus with 86 samples.

Results

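The response of the heart to isoproterenol was measured in FVB mice, an inbred laboratory strain, on arrays that read the RNA of the whole heart. Hearts of mice infused with isoproterenol at 120 µg/g/day for 14 days were compared with hearts of mice given no treatment, across all 34945 probe sets that carry 1 gene symbol (18193 genes). FVB gave 22 of the 86 arrays of the series, 10 untreated and 12 treated, and treated replicate 2 was left out, so 10 untreated and 11 treated arrays were compared. The other arrays came from C57BL/6, B6129SF2/J and B2KO mice under the same 2 conditions, and they enter below only where the response in FVB is set against theirs.

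Mice were assigned to treatment at random, per the labels, which give neither age nor sex of the animals and no genotype for FVB beyond the name of the line. The untreated mice are described as given no treatment, and no infusion of vehicle is mentioned for them. The labels speak of 20 mice per line, 10 of them treated, while FVB has 22 arrays, and each array is taken as 1 mouse. Nothing else says that arrays are separate animals, so p-values measure the spread between these arrays. The hearts were labelled as heart with no chamber named.

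Isoproterenol is a synthetic catecholamine that activates beta-adrenergic receptors, which act through the stimulatory G protein, adenylyl cyclase, cAMP and protein kinase A to make the heart beat faster and harder. Sustained infusion in rodents is a common model of cardiac growth and scarring, in which fibroblasts lay down collagens and matricellular proteins, the secreted proteins that modify how cells interact with the matrix. Receptor kinases and phosphodiesterases damp the signal, and the adult heart meets most of its energy need by oxidising fatty acids.

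Levels are given as log2 of the deposited intensity, on which the median of each array is 0, so that a value under 0 is dimmer than the typical probe set. A gene is read from its probe set of the highest mean, and its change is the treated mean minus the untreated mean in log2 units, with the standard error (SE) from limma. A gene is said to rise or fall where limma's p-value, adjusted by the Benjamini-Hochberg method over all 34945 probe sets, was under 0.05. In RNA from a whole heart, fewer cells of a type and less RNA per cell cannot be told apart.

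Treated replicate 2, untreated replicate 10 and treated replicates 9 to 12 stood apart, and all but the first of these are in the comparison. Over 200 probe sets that mark strain, treated replicate 2 lay 2.80 log2 units (root mean square) from FVB and 0.992 from C57BL/6, while the other 21 FVB arrays lay 0.438 to 1.04 from FVB. At 160 of the 202 genes called below (79.2%) its level was nearer the untreated than the treated mean, against 2.97% to 31.7% for the other treated arrays. With it in the test 77 of the 202 genes were called, all of them among the 202. Untreated replicate 10 had a 3' minus 5' difference of 2.06 for Gapdh and 4.18 for actin, 2 transcripts probed along their length to follow RNA quality, while the other untreated arrays had −0.388 to 0.395 and 0.342 to 1.60. Without it 179 of the 202 genes were called. Untreated replicates 1 and 2 had the lowest upper quartile of intensity (3.70 and 4.05, against 4.64 to 8.37 in the other 19 arrays compared). Cardiomyocyte genes were the brightest of the lists on every array, with a mean over 14 markers of 9.80 to 10.21 untreated and 9.45 to 10.71 treated, and 9 of 11 lung markers lay under the array median. The exceptions among treated hearts were replicate 9, where the surfactant gene Sftpc read 5.49 against 1.65 on the next highest FVB array, and replicate 3, where the airway genes Scgb1a1 and Scgb3a2 read 4.84 and 2.16 against at most 0.02 and −0.59 elsewhere.

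Treated replicates 9 to 12 differed from the other treated hearts in genes of heart muscle and its energy supply. Their signal at the Gapdh 3' control was 10.76 to 11.09, against 9.42 to 10.31 on the other 18 FVB arrays, and the labels used here name no batch for them. Their mean over the cardiomyocyte markers was 10.51 to 10.71, above every untreated heart, while the other 7 treated hearts compared had 9.45 to 10.06. The collagens did not split in this way, with list means of 4.26 to 4.97 in the 4 hearts and 4.26 to 4.81 in the 7. In an alternative chosen after seeing the data, without the 4 hearts, 104 of the 202 genes were called and in all 83 genes rose and 49 fell. Collagens then rose at 7 of 16, matricellular and elastic fibre genes at 10 of 28 and cell cycle genes at 12 of 50, with medians of 0.99, 0.84 and 0.89. Of the 72 named genes that passed, 19 did not pass without them: Grk5, Bgn, Prelp, Ctsk, Adam19, Fhl1, Klf15, Sesn1, Egr2, Cxcl12, Mfap5, Col1a2, Meox1, Clec4d, Ms4a7, Slc4a1, Fat4, Apln and 4930481A15Rik, with limma adjusted p from 0.0675 to 0.324. Their changes kept their sign, and this fit has 7 treated arrays in place of 11.

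Treatment changed 321 of 34945 probe sets (0.919%), 209 upward and 112 downward. Read as genes, 202 of 18193 were called (1.11%), of which 141 rose (0.775%) and 61 fell (0.335%). A further 69 genes passed only on a probe set other than the one read and are not in these counts or those of the lists. Of the 100 called genes with more than 1 probe set, 35 had another past the threshold, none in the opposite direction. Quantile normalization, which forces the arrays to 1 distribution, turned the split over probe sets from 209 up and 112 down to 489 and 468, and centring on the brighter probe sets gave 264 and 280, so the excess of rises depends on the scaling. Of the 202 genes, 157 changed by over 1 log2 unit (113 up, 44 down), the median size was 1.20, and 123 passed in each of the 21 fits that leave out 1 array (83 up, 40 down). Without untreated replicate 2 the rises numbered 95, and without treated replicate 6 the falls numbered 46. The groups did not overlap at all for 15 rising genes (0.0824% of all genes) and 5 falling genes (0.0275%).

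**Figure D1:**
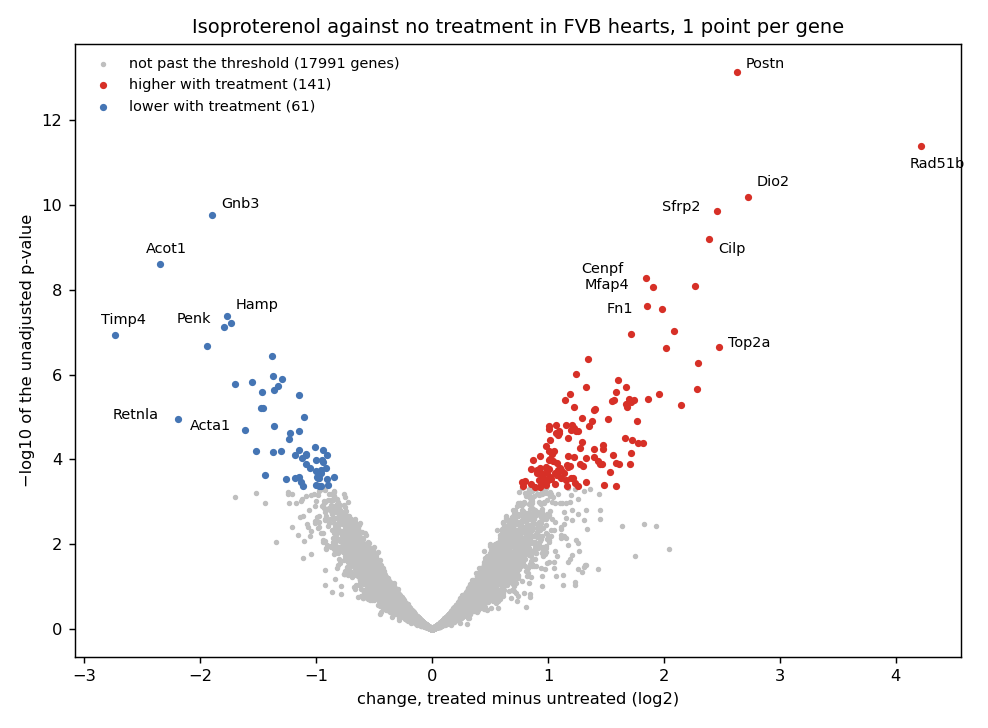
Each point is a gene, with its change on treatment in log2 units across and −log10 of limma's unadjusted p-value upward. The 141 genes that rose are red, the 61 that fell are blue and the other 17991 are grey. Postn has the smallest p-value and Rad51b the largest change.

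Of 46 measured genes of beta-adrenergic and cAMP signalling, the pathway that isoproterenol acts on, 2 rose and 1 fell, where 1.11% of all genes were called. Their median change was 0.28, and the median of all genes was −0.08. Dio2, the deiodinase that converts thyroxine to the active hormone T3 and a known target of cAMP, was between −1.02 and 1.73 in untreated hearts (median 0.33) and between 1.93 and 4.02 in treated hearts (median 2.85). No treated array reached down to the highest untreated one. The change was 2.72 ± 0.28 (SE), or 6.60-fold (limma adjusted p = 7.34e-07), and a second Dio2 probe set rose by 1.99 while its other probe set, dimmer in both groups than the array median, differed by 0.42 (adjusted p = 0.618).

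The stretch just before the Dio2 start is shown because it holds the full cAMP response element, the letters TGACGTCA bound by CREB-family factors, which 1.77% of the 27025 genes in the RefSeq promoter table carry within 250 bases before the start. Capitals mark the element, 95 bases before the start, in the 150 bases at chr12:90739039-90739188 of GRCm38.p6, minus strand, read 5′ to 3′.
Dio2: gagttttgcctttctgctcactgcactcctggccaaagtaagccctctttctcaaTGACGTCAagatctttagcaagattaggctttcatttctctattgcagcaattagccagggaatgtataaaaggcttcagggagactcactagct
The match describes the letters alone. No binding was measured here.

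Gnb3, the beta-3 subunit of heterotrimeric G proteins, went the other way. It lay between 1.23 and 2.17 in untreated hearts (median 1.64) and between −0.96 and 0.42 in treated ones (median −0.21), with no overlap. It fell by 1.90 (SE 0.21), 3.73-fold, with limma adjusted p = 1.19e-06. Grk5, a kinase that phosphorylates activated receptors, rose from a median of 3.56 (2.70 to 4.58) to 4.75 (3.78 to 5.32), a change of 0.94 ± 0.24 with overlapping groups. Its adjusted p of 0.0454 held in only 6 of the 21 fits that leave out 1 array, and was 0.0859 without untreated replicate 2. The phosphodiesterase Pde4b differed by 0.62 ± 0.25 (limma adjusted p = 0.340), Crem, a cAMP-responsive repressor and activator, by 0.48 ± 0.29 (0.572), and the nuclear receptor Nr4a1 by 0.81 ± 0.28 (0.220). None of these 3 passed. Dimmer probe sets than those read were called for 2 more members of the list. That of the phosphodiesterase Pde4d fell by 1.33 (limma adjusted p = 0.00455). That of Adcy3 rose by 1.10 (limma adjusted p = 0.0401), held in 6 of the 21 fits that leave out 1 array. With treated replicate 2 in the test Dio2 and Gnb3 were still called and Grk5 was not.

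Collagens rose as a group. Of 16 measured fibrillar and associated collagens 10 rose, where 0.775% of all genes did, and none fell. Of their differences 15 of 16 were positive, and their median was 1.08, where the median over all genes was −0.08. The mean over the list lay between 2.72 and 4.23 in untreated and between 4.26 and 4.97 in treated hearts, so that no treated heart was under any untreated one. Col3a1, which forms the fine fibrils of a young scar, ran from 7.42 to 8.84 untreated (median 8.40) and from 9.21 to 10.23 treated (median 9.45), a non-overlapping rise of 1.24 ± 0.21 (limma adjusted p = 0.00104). Col1a1, the main chain of type I collagen, was more spread, with 3.77 to 6.84 untreated (median 5.72) and 6.17 to 7.74 treated (median 7.43), and 8 of 11 treated hearts above every untreated one.

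Among the chains that accompany the fibrils, Col8a1 rose by 1.57 ± 0.28 and Col5a2 by 1.33 ± 0.23, both without overlap, and Col14a1 rose by 1.67 ± 0.29 with 10 of 11 treated hearts above every untreated one. Col1a2, the second chain of type I collagen, rose by 1.18 ± 0.27 (limma adjusted p = 0.0242) and lost its call when untreated replicate 2 was left out (0.0539). All other probe sets of Col3a1, Col5a2 and Col8a1 rose too, while a dimmer one for Col1a1 differed by 0.57 (adjusted p = 0.432). Untreated replicates 1 and 2, the 2 arrays of the lowest upper quartile, had the lowest means over the list (3.03 and 2.72, against 3.38 to 4.23). Without replicate 1 the count was 7 of 16, and after quantile normalization it was 12. With treated replicate 2, whose list mean was 3.12, it was 3 of 16. The 17 genes of collagen processing and crosslinking, among them lysyl oxidases, had a median of 0.50 and none passed on the probe set read. Lox itself differed by 0.96 ± 0.31 (limma adjusted p = 0.171). Dimmer probe sets than those read rose for Pcolce, by 1.03 (limma adjusted p = 0.0222), and for Bmp1, by 1.19 (0.0145).

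Matricellular and elastic fibre genes held the strongest change in the data by p-value. Of 28 measured, 13 rose and none fell, with a median of 0.91. Postn, the periostin gene, a marker of activated cardiac fibroblasts, lay between 5.02 and 6.48 in untreated hearts (median 5.74) and between 7.93 and 8.78 in treated hearts (median 8.37). The groups did not overlap. It rose by 2.63 ± 0.21, 6.18-fold (limma adjusted p = 2.50e-09), and the C57BL/6-like treated replicate 2 read 5.47, inside the untreated range.

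Cilp, a matrix protein of cartilage that injured hearts also make, rose from a median of 0.72 (−0.64 to 1.61) to 3.22 (1.69 to 4.01), a change of 2.39 ± 0.28, again without overlap. Treated replicate 2 read 2.92 there, among the treated hearts. Fn1, fibronectin, rose by 1.85 ± 0.25 from 2.83 to 5.27 untreated (median 4.40) to 5.48 to 6.91 treated (median 6.03). Tenascin C (Tnc), made in healing tissue, rose by 2.02 ± 0.31, with 10 of 11 treated hearts above every untreated one and treated replicate 10 at −0.22, inside the untreated range. Its second probe set, dimmer than the array median, differed by −0.12.

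Elastic fibre genes were part of the same list. Mfap4, a microfibril protein, rose by 1.91 ± 0.25 and Mfap5 by 1.47 ± 0.31, while the adhesive glycoprotein Thbs4 rose by 1.22 ± 0.23 without overlap between groups. The count was 11 of 28 without untreated replicate 1, 14 without untreated replicate 10, 16 after quantile normalization and 8 with treated replicate 2. Of 10 small leucine-rich proteoglycans, which bind collagen fibrils, Bgn (biglycan) rose by 1.09 ± 0.22 on this and both of its other probe sets. Prelp was called at 0.93 ± 0.24 (limma adjusted p = 0.0489) but in only 2 of 21 fits that leave out 1 array, the highest adjusted p being 0.0961 without treated replicate 4. The list's median was 0.06.

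**Figure D2:**
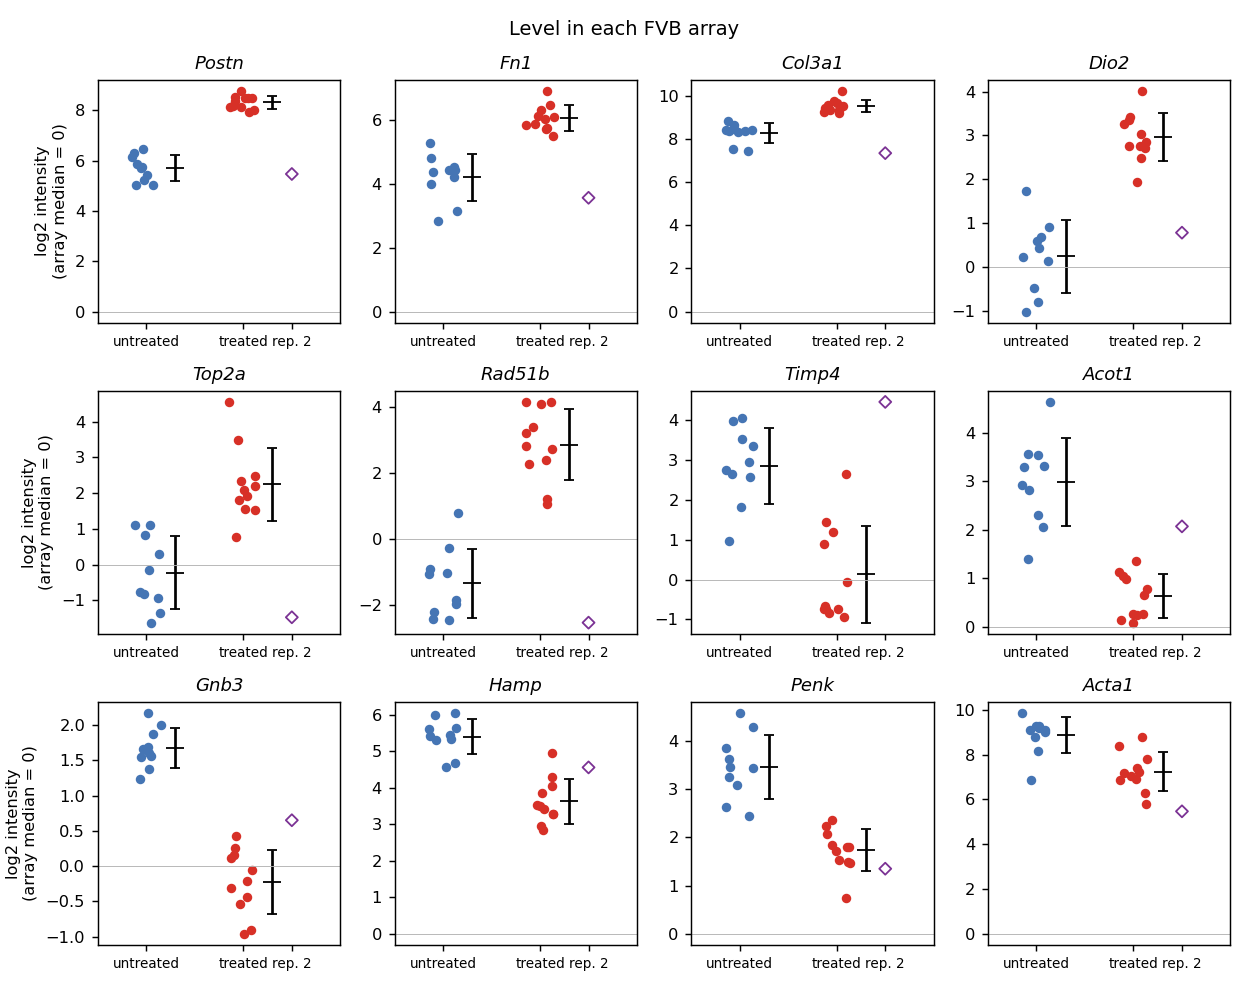
Each panel gives the log2 intensity of 1 gene on each FVB array, with the array median at 0; blue points are the 10 untreated hearts, red points the 11 treated hearts, black bars the mean and SD, and the open diamond treated replicate 2, which is not in the test. Postn, Fn1, Col3a1, Dio2, Rad51b, Acot1, Gnb3 and Penk do not overlap between the groups, while Top2a, Timp4, Hamp and Acta1 do.

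Proteases that cut the matrix and their inhibitors moved in both directions, with 4 of 25 rising, 1 falling and a median of 0.49. Timp4, a tissue inhibitor of metalloproteinases that is abundant in the heart, gave the largest fall of any gene named. It lay between 0.97 and 4.06 in untreated hearts (median 2.85) and between −0.94 and 2.64 in treated hearts (median −0.67), and 8 of 11 treated hearts were under every untreated one. It fell by 2.73 (SE 0.40), 6.64-fold, with limma adjusted p = 0.000204, and its second probe set fell by 1.66. Treated replicate 2 read 4.46, above every untreated heart.

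The other inhibitors did not follow Timp4. Timp1, induced in wounds, rose from a median of 1.75 (−0.03 to 3.86) to 3.77 (2.61 to 4.49), by 1.82 ± 0.38, with 4 of 11 treated hearts above every untreated one. Timp2 differed by 0.86 ± 0.23 (limma adjusted p = 0.0571) and Timp3 by −0.40 ± 0.28 (0.617), and neither passed. Mmp2, a gelatinase made by fibroblasts, rose by 1.15 ± 0.21 with 10 of 11 treated hearts above every untreated one, and the collagen-cutting cathepsin Ctsk rose by 1.02 ± 0.23. Adam19, a membrane protease, rose by 1.03 ± 0.25 but held in 8 of 21 fits that leave out 1 array, with a highest adjusted p of 0.0814 without untreated replicate 1. With treated replicate 2 none of the 4 rises was called and Timp4 was. Dimmer probe sets than those read rose for Mmp14, by 1.08 (limma adjusted p = 0.0286), and for Adam12, by 0.96 (0.0489).

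Of 30 genes of TGF-beta and Wnt signalling, 2 rose and none fell. Sfrp2, a secreted modulator of Wnt signalling, went from a median of −0.12 (−1.47 to 0.95) to 2.10 (1.36 to 3.04), a non-overlapping rise of 2.45 ± 0.26, 5.48-fold (limma adjusted p = 1.18e-06). Fstl1, a secreted follistatin-like protein, rose by 1.19 ± 0.21. Sfrp1 was not called on the probe set read, while dimmer ones rose by 1.354 and 1.505 (limma adjusted p = 0.00126 and 0.00618). The ligands Tgfb1, Tgfb2 and Tgfb3 differed by 0.63, 0.44 and 0.63, with adjusted p of 0.185, 0.465 and 0.167. Meox1, a transcription factor of activated fibroblasts, rose by 1.38 ± 0.27.

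Genes of mitosis rose from low levels. Of 50 measured genes of the cell cycle 11 rose, where 0.775% of all genes did, and none fell. Positive differences numbered 46 and the median was 0.77, where the median over all genes was −0.08. Top2a, the topoisomerase that untangles replicated chromosomes, lay between −1.62 and 1.12 in untreated hearts (median −0.47) and between 0.77 and 4.55 in treated hearts (median 2.09). It rose by 2.48 ± 0.38, 5.57-fold (limma adjusted p = 0.000354), with 10 of 11 treated hearts above every untreated one, and its 2 other probe sets, both dim, differed by −0.18 and −0.07. Mki67, the proliferation antigen Ki-67, rose by 2.14 ± 0.39 and Cdk1, the kinase that starts mitosis, by 1.77 ± 0.34.

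Cenpf, a kinetochore protein, and Prc1, which bundles the microtubules of the central spindle, were the steadiest of the list. Cenpf ran from 1.33 to 2.36 untreated and from 2.77 to 4.52 treated, a rise of 1.85 ± 0.23, and Prc1 from −0.74 to 0.44 and from 0.47 to 2.67, a rise of 1.72 ± 0.25. Neither overlapped. The mean over the 50 genes was 0.54 to 1.31 in untreated hearts and 0.88 to 3.03 in treated hearts. Treated replicates 6 and 8 were highest, at 3.03 and 2.55, and treated replicate 3 was lowest, at 0.88, inside the untreated range. The count of rises was 8 without untreated replicate 2, 13 without treated replicate 11, and 3 with treated replicate 2, whose list mean was 0.38.

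Transcripts of T cells stood high in treated replicates 6 and 1, and their part in the cell cycle rises was not tested. Treated replicate 8, at 2.55 over the cell cycle list, was not among these. Treated replicates 6 and 1 had means over 14 lymphocyte markers of 2.36 and 1.29, against −1.19 to −0.13 in the other 9 treated hearts and −1.14 to −0.34 in untreated hearts. The T cell receptor component Cd3e read 4.05 and 3.23 on these arrays and −1.63 to 0.60 on the other 19, and Cd8b1 read 5.95 and 3.64 against −2.15 to 2.09. Without both arrays 9 of the 50 cell cycle genes rose, 8 of them among the 11, and the list's median was 0.61. Top2a then rose by 2.21 ± 0.35, Mki67 by 1.79 ± 0.37 and Cenpf by 1.82 ± 0.25, while Ccnb2, Cdc20 and Aurka, mitotic regulators, no longer passed (limma adjusted p = 0.0607, 0.0730 and 0.124). In the fits that leave out 1 array, Ccnb2, Cdc20 and Aurka had held in 18, 19 and 5 of 21. Of all 202 genes 152 were called without these arrays, and the counts for collagens and matricellular genes stayed at 10 and 13.

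Promoters of the rising mitotic genes are shown because the list shares known elements, the CCAAT box (letters CCAAT) and the cell cycle genes homology region, or CHR (letters TTTGAA), searched on both strands in the 250 bases before the start. Of the 11 rising genes 10 were in the RefSeq promoter table (GRCm38.p6), and of these 9 held a CCAAT box, 7 a CHR and 7 both. Among the 30 of 39 other measured members found there, 21 held a CCAAT box, 7 a CHR and 6 both, and over all 27025 genes the shares were 37.5%, 18.3% and 7.34%. The elements overlapped each other in 35 of all genes and in none of the 10. Capitals mark both elements in the 150 bases before the start, read 5′ to 3′ along the gene, at chr11:99024190-99024339 (Top2a, minus strand), chr10:69352913-69353062 (Cdk1, minus), chr2:164769779-164769928 (Ube2c, plus) and chr7:80294326-80294475 (Prc1, plus, the downstream of its 2 starts in the table).
Top2a: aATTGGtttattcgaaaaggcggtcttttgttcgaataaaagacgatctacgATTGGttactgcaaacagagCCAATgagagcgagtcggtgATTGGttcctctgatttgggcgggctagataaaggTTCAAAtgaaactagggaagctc
Cdk1: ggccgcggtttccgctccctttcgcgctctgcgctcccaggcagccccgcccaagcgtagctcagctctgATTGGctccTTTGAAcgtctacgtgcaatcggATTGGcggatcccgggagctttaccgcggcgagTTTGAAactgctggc
Ube2c: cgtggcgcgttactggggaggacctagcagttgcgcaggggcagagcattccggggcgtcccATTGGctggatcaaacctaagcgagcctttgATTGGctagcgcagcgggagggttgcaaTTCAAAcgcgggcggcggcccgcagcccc
Prc1: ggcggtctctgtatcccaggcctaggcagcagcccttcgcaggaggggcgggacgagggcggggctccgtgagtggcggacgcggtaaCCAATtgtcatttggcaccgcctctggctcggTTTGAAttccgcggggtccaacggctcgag
In all 4 a CHR or its reverse complement lies within 30 bases of the start and a CCAAT box, in either orientation, lies upstream of it. A match is a description of the letters and is not shown to act in these hearts.

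**Figure D3:**
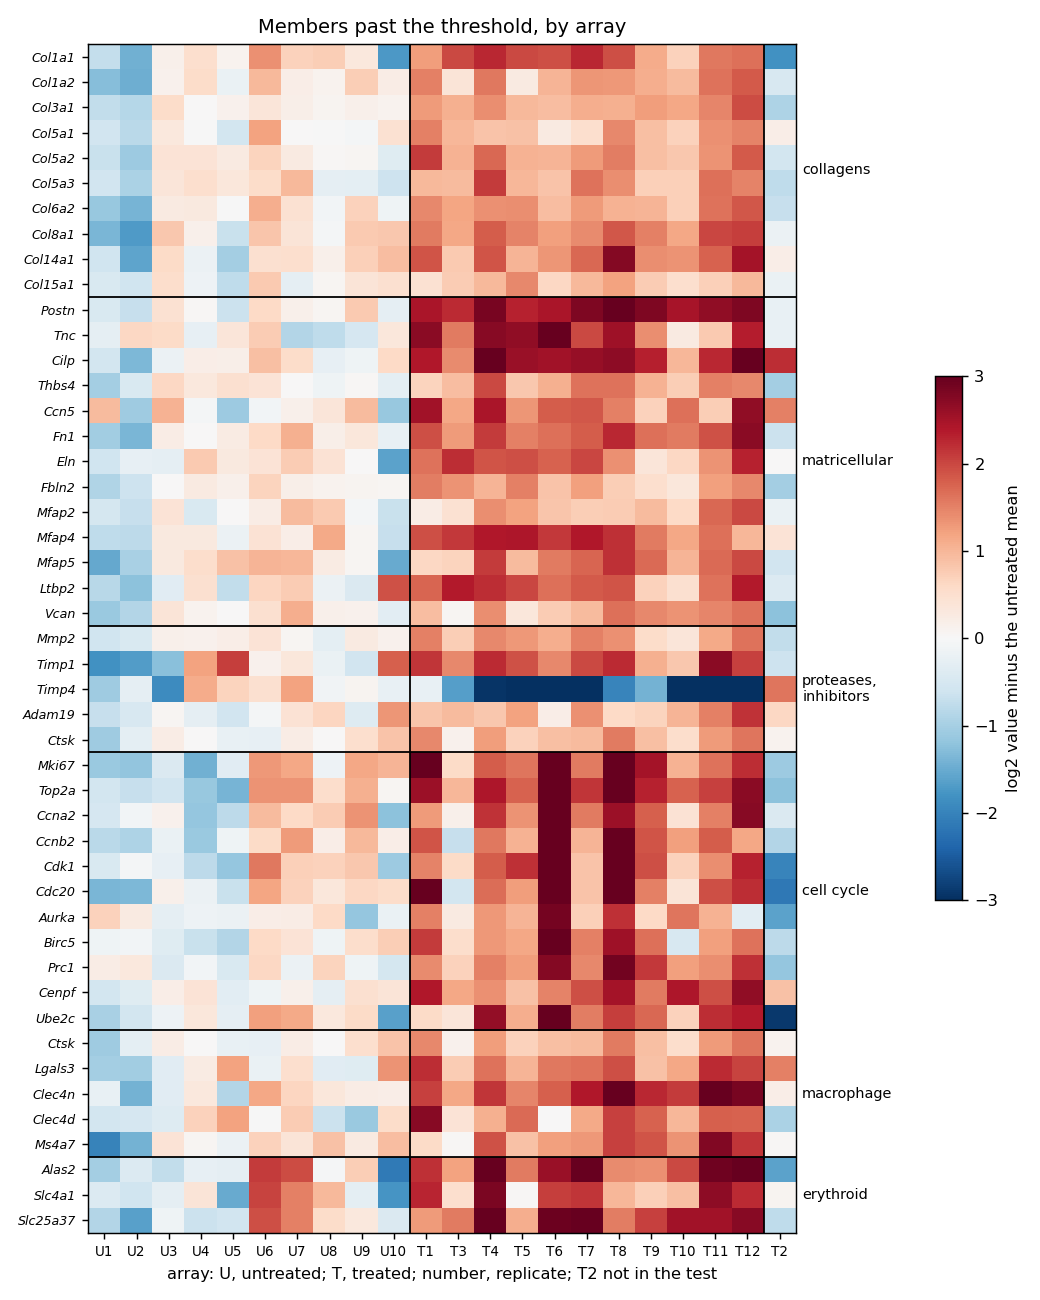
Rows are the members past the threshold in 6 lists and columns are the FVB arrays, with colour giving the log2 value minus the untreated mean of that gene (red above, blue below, capped at 3). Ctsk is in 2 lists. Treated arrays are mostly red except for Timp4, treated replicates 6 and 8 are darkest in the cell cycle, and treated replicate 2, at the right edge, is outside the test.

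Rad51b showed the largest change of all genes. It encodes a protein of homologous recombination, a pathway that repairs broken DNA. Untreated hearts lay between −2.48 and 0.77 (median −1.47), mostly under the array median, and treated hearts between 1.05 and 4.16 (median 2.82), with no overlap. The rise was 4.21 ± 0.39, 18.6-fold on this scale (limma adjusted p = 7.14e-08), and passed in each of the 21 fits that leave out 1 array. A second, dim probe set of the gene did not differ in mean (0.00 to 2 decimals), and treated replicate 2 read −2.55. No other of the 23 genes of homologous recombination and DNA damage rose; the list's median was 0.06, and Sesn1, a stress-induced regulator of growth signalling, fell by 1.00 (SE 0.25; limma adjusted p = 0.0465), held in 7 of 21 fits that leave out 1 array with a highest value of 0.0994 without untreated replicate 9.

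Contractile genes gave few calls over treated hearts that were not alike. Of 32 sarcomere and fetal isoform genes 1 rose and 1 fell, with a median of −0.08. Myom2 was not called on the probe set read, while dimmer ones fell by 1.125 and 0.851 (limma adjusted p = 0.0222 and 0.0371). The mean over the list was 7.89 to 8.64 in untreated hearts, 8.33 to 8.76 in treated replicates 9 to 12 and 7.45 to 8.10 in the other 7 treated hearts. Without replicates 9 to 12 the median was −0.37 and only the fall of Acta1 passed, so the median over all treated hearts joins higher and lower ones, and the part of the 4 arrays in it was not tested. Myl2, the ventricular myosin light chain, ran from 10.54 to 11.01 untreated, from 11.03 to 11.51 in the 4 hearts and from 10.01 to 10.78 in the 7. Acta1, the skeletal actin often re-expressed in hypertrophy, fell by 1.62 (SE 0.32; limma adjusted p = 0.00674), from 6.89 to 9.86 (median 9.09) to 5.79 to 8.80 (median 7.20), with 3 of 11 treated hearts under every untreated one. Treated replicate 2 read 5.47, lower still. Fhl1, a LIM protein of the sarcomere, rose by 0.99 ± 0.25 (0.0397), held in 9 of 21 fits that leave out 1 array with a highest value of 0.0886 without untreated replicate 2.

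The classical markers of hypertrophy did not pass. In the fit over all 11 treated hearts the natriuretic peptide genes Nppa and Nppb differed by 0.29 ± 0.20 and 0.31 ± 0.31 (limma adjusted p = 0.627 and 0.710). Nppa was high in every heart, between 9.91 and 10.51 untreated and between 9.82 and 11.28 treated, and 6 treated hearts exceeded every untreated one. Replicates 9 to 12 were among these, at 10.87 to 11.28 against 9.82 to 10.57 in the other treated hearts, and without them the difference was 0.00 to 2 decimals. The adult myosin heavy chain Myh6 differed by 0.31 ± 0.20, and the fetal chain Myh7 by −1.16 ± 0.39 (adjusted p = 0.202), all 11 treated hearts lying under the untreated mean. Untreated replicate 10 had the highest Myh7, 10.32, against 5.76 to 8.10 in the other 9 untreated hearts. None of 26 genes of calcium cycling and none of 26 ion channel and gap junction genes was called on the probe set read. A dimmer probe set of Trdn, of the calcium list, fell by 1.76 (limma adjusted p = 0.00303). The calcium pump Atp2a2 differed by 0.04 ± 0.21 and its inhibitor phospholamban, Pln, by −0.04 ± 0.22. Atp2a2 lay between 10.49 and 10.99 untreated, between 11.11 and 11.50 in treated replicates 9 to 12 and between 10.01 and 10.80 in the other treated hearts; without the 4 it differed by −0.31 ± 0.21 (limma adjusted p = 0.494). The median of the calcium list was then −0.22. Of 22 genes of load response only Hbegf, a growth factor that binds heparin, was called; it fell by 1.18 (SE 0.26).

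Of 33 measured genes of fatty acid uptake and oxidation 1 fell. The median was −0.30 and 29 differences (87.9%) were negative, where 59.2% were over all genes. The mean over the list was 6.77 to 7.67 in untreated hearts, 7.08 to 7.72 in treated replicates 9 to 12 and 6.43 to 6.88 in the other 7 treated hearts, and without the 4 the median was −0.60 and 3 genes fell. The gene that fell over all treated hearts was Decr1, which the oxidation of unsaturated fatty acids needs; it ran from 7.48 to 8.33 untreated (median 7.98) and from 6.50 to 7.96 treated (median 6.85), a fall of 0.94 (SE 0.20; limma adjusted p = 0.0143), with 9 of 11 treated hearts under every untreated one, and its second probe set fell by 1.07. Under quantile normalization 8 of the 33 fell and with arrays centred on the brighter probe sets 5 did, so the count depends on the scaling, and without untreated replicate 10 it was 2. Slc27a1 was not called on the probe set read, while a dimmer one fell by 0.84 (limma adjusted p = 0.0288).

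Acot1, a cytosolic enzyme that splits fatty acyl-CoA and a target of PPAR-alpha, fell much further. Untreated hearts lay between 1.39 and 4.63 (median 3.11) and treated hearts between 0.09 and 1.35 (median 0.66), without overlap. The fall was 2.34 (SE 0.29), 5.08-fold, with limma adjusted p = 1.20e-05. Its near-identical neighbour Acot2 differed by −0.71 ± 0.26 (0.272), and probes of such close paralogs can read each other's RNA, so which of the 2 a signal belongs to is uncertain. No other of the 14 thioesterases was called.

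Regulators and other pathways of energy supply moved less. Ppargc1a, Ppara, Pdk4 and Ucp3 differed by 0.30, −0.08, −0.11 and −0.29, with limma adjusted p between 0.695 and 0.911. Klf15, a transcription factor of cardiac metabolism, fell by 0.90 (SE 0.22; limma adjusted p = 0.0369), held in 9 of 21 fits that leave out 1 array with a highest value of 0.0851 without untreated replicate 5. None of 22 tricarboxylic acid cycle genes and none of 37 respiratory chain subunits was called, with medians of −0.09 and −0.08, equal or close to that of all genes. The treated hearts split here too. The mean over the respiratory chain list was 9.79 to 10.08 in replicates 9 to 12 and 8.75 to 9.23 in the other 7, with untreated hearts at 8.95 to 9.79, and that over the tricarboxylic acid cycle was 8.87 to 9.26 and 7.91 to 8.41, with untreated hearts at 8.01 to 8.97. Without the 4 arrays the medians were −0.38 and −0.41, that of all genes was −0.18, and again none was called; the part of these arrays in the result was not tested. Of 28 genes of glucose uptake and glycolysis Fbp2, the muscle fructose bisphosphatase, fell by 1.23 (SE 0.26).

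Iron and red cell genes gave changes of both signs. Hamp, the gene of hepcidin, the peptide that closes the iron exporter ferroportin, fell by 1.77 (SE 0.25; limma adjusted p = 9.69e-05), from 4.57 to 6.05 (median 5.43) to 2.84 to 4.96 (median 3.50), and its second probe set fell by 1.61. In 10 of 11 treated hearts Hamp was under every untreated one. Slc25a37, mitoferrin-1, which carries iron into mitochondria, rose by 2.29 ± 0.37, and Alas2, the first enzyme of haem synthesis in red cell precursors, by 2.29 ± 0.40.

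Of the 8 erythroid genes measured 3 rose, Alas2, Slc25a37 and Slc4a1, with a list median of 0.90. Both Alas2 and Slc25a37 were widely spread. Alas2 lay between 2.56 and 6.77 in untreated hearts and between 5.87 and 8.11 in treated hearts, and untreated replicates 6 and 7 had the highest means over the 8 erythroid genes among untreated hearts, 2.60 and 2.25, against 0.81 to 1.76 in the other 8. Treated hearts had 1.92 to 3.11. Slc4a1, the anion exchanger of red cells, rose by 1.58 ± 0.40 (limma adjusted p = 0.0474; 8 of 21 fits that leave out 1 array, highest value 0.102 without treated replicate 4). The globin gene Hba-a1, whose probe set was under the array median in both groups, differed by −0.29 ± 0.28 (0.703). The beta globin genes listed were not measured, so this dim probe set alone cannot show whether globin RNA changed. Of the other members Bpgm, which makes the bisphosphoglycerate of red cells, differed by 1.21 (0.138), the carbonic anhydrase Car2 by 0.59, the membrane protein Epb42 by −0.07 and the red cell transcription factor Klf1 by −0.35, and none passed on the probe set read. A dimmer probe set of Bpgm rose by 1.34 (limma adjusted p = 0.0240), held in 18 of 21 fits that leave out 1 array. The amount of blood left in the hearts was not measured, and its part in the erythroid rises was not tested. Tent5c, a poly(A) polymerase that is also high in red cell precursors, rose by 1.96 ± 0.35, with 5 of 11 treated hearts above every untreated one.

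Myeloid genes rose at 5 of 24 macrophage and monocyte markers, with a median of 0.44. Clec4n, the fungal-glycan receptor dectin-2, rose without overlap by 2.27 ± 0.29, from a median of 0.46 to 2.38, and on a second probe set by 1.82. Lgals3, galectin-3, rose by 1.56 ± 0.28, Clec4d by 1.40 ± 0.30, and Ms4a7 by 1.47 ± 0.34 (limma adjusted p = 0.0222, and 0.0553 without untreated replicate 2). The fifth was Ctsk, given above with the proteases. The general markers Adgre1, Cd68 and Csf1r differed by 0.66, 0.45 and 0.43 and none passed. Retnla, a secreted protein of alternatively activated macrophages, fell by 2.19 (SE 0.42; limma adjusted p = 0.00467), from 1.38 to 4.94 untreated (median 3.16) to −1.28 to 3.29 treated (median 1.19).

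Other immune lists showed few calls. The chemokine Cxcl12 rose by 0.93 ± 0.21, 1 of 33 chemokines and cytokines to rise. None of 28 interferon-response genes and none of 14 antigen presentation genes passed. Of their differences 23 and 13 were positive, with medians of 0.37 and 0.53, where the median over all genes was −0.08. With no call these counts are descriptions. The class I gene H2-K1 differed by 0.87 ± 0.26 on the probe set read here (limma adjusted p = 0.119) and rose by 1.22 on another (0.0194); probes of class I genes can read each other's RNA. No neutrophil or mast cell marker and no lymphocyte marker passed. Of them 9 of 13 and 9 of 14 lay under the array median in the means of both groups. The treated mean includes the 2 treated hearts with T cell transcripts.

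The remaining large falls belonged to genes of scattered function. Penk, the precursor of the enkephalin opioid peptides, fell without overlap by 1.73 (SE 0.25), from 2.45 to 4.58 (median 3.44) to 0.75 to 2.36 (median 1.80). Frem2, a basement membrane protein, fell by 1.79 (SE 0.26) and the potassium channel Kcna1 by 1.48 (SE 0.27), though the 3 other Kcna1 probe sets were not called. Cngb3, a subunit of the cone photoreceptor channel, fell by 1.94 (SE 0.30), Inmt, an amine methyltransferase, by 1.46 (SE 0.26), and Asb5, a muscle protein with ankyrin repeats, by 1.52 (SE 0.33). Gatd1, Rpp40 and Cnmd fell by 1.70, 1.55 and 1.45, to treated medians of −1.33, −0.42 and −1.55, under the array median.

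Among the remaining large rises, Dct, dopachrome tautomerase of melanin synthesis, went from −2.34 to 1.44 (median −0.99) to 0.53 to 1.93 (median 1.01), by 1.87 ± 0.34. Rtl3, a gene derived from a retrotransposon, rose by 2.09 ± 0.30, with 10 of 11 treated hearts above every untreated one. Egr2, an immediate early transcription factor, rose by 0.94 ± 0.23 (limma adjusted p = 0.0306; 15 of 21 fits that leave out 1 array, highest value 0.0754 without untreated replicate 9), the only one of 23 immediate early genes to be called. Of the 202 called genes, 34 that rose were under the array median before treatment and 20 that fell were under it after treatment, where the size of a change is less certain.

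Markers of cell types were read in the same way. Of 14 fibroblast markers 5 rose (median 0.50) and of 12 markers of activated fibroblasts 5 rose (median 0.95), though these lists share Col1a1, Col1a2, Col3a1, Mfap5, Postn, Tnc, Cilp and Thbs4 with the matrix lists above and add little to them. Pi16, of resident fibroblasts, rose by 1.28 ± 0.29 and lost its call without untreated replicate 1 (limma adjusted p = 0.0534); its highest untreated value was that of replicate 10. None of the 14 cardiomyocyte, 14 endothelial, 14 smooth muscle and pericyte, 12 adipose, 11 lung and 11 atrial markers was called on the probe set read, with medians of 0.01, 0.26, 0.14, 0.02, −0.18 and 0.09. A dimmer probe set of Notch3, of the smooth muscle and pericyte list, rose by 0.97 (limma adjusted p = 0.0132). Of 18 circadian clock genes none passed. Their median was −0.31, and the times of day at which the hearts were taken were not used here.

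**Figure D4:**
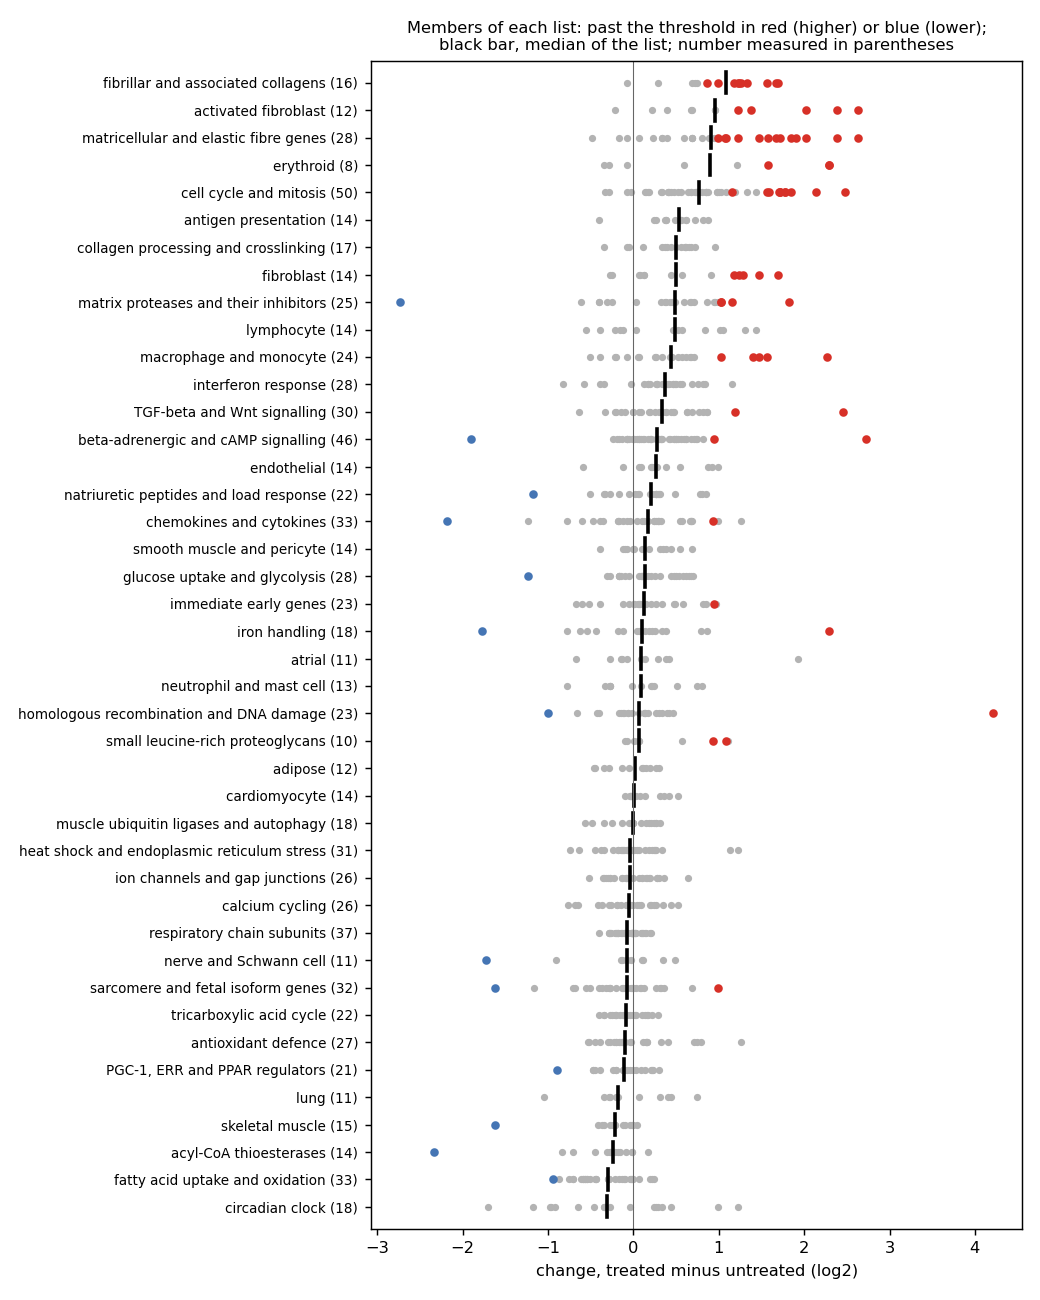
Each row is a list of genes with the number measured in parentheses, each point a member placed by its change in log2 units, red where it rose and blue where it fell past the threshold, and the black bar is the median. Collagens, activated fibroblast markers, matricellular genes, erythroid genes and the cell cycle have the highest medians, from 1.08 to 0.77, and the circadian clock and fatty acid lists the lowest, −0.31 and −0.30.

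Whether the response in FVB differed from that of the other lines was tested as a difference between effects in 1 limma fit over the 8 groups. Against C57BL/6, an inbred strain, 441 of 34945 probe sets differed (1.26%), 141 with the higher change in FVB (0.403%) and 300 with the lower (0.858%). Against B6129SF2/J, a hybrid line, 9 did (0.0258%), 3 with the higher change in FVB (0.00858%) and 6 with the lower (0.0172%). Against B2KO, a line whose name the labels do not explain, none passed limma's adjusted p (0.00%). An unadjusted limma p under 0.05 was seen at 1978 of the 34945 probe sets, where chance alone gives a share of about 0.05. Of the B2KO arrays in this fit 3 stood apart. Untreated replicate 8 had a median correlation of 0.820 with all other arrays of the series and a 3' minus 5' difference of 7.31 for Gapdh. Untreated replicate 1 had Xist at 3.20 and Eif2s3y at −0.565, where every other B2KO array in the fit read under 0 and above 3. Treated replicate 7 lay 2.40 from C57BL/6 over strain markers, where the others lay 2.75 to 3.23 from it. Without these 3, in an alternative chosen after seeing the data, again no difference from FVB passed, and 4200 had an unadjusted p under 0.05. Whether probes lie over strain polymorphisms was not tested.

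Of the 202 genes called in FVB, 11 differed from C57BL/6 past the threshold, 2 from B6129SF2/J and none from B2KO. The same genes, chosen for their change in FVB, were called in the same direction at 133 in C57BL/6, 102 in B6129SF2/J and 14 in B2KO, and in the opposite direction at none. Without the 3 B2KO arrays that stood apart the count in B2KO was 25, and the medians given next for it were 0.57 and −0.63. The median change of the 141 rises was 1.22 in FVB, 1.13 in C57BL/6, 0.79 in B6129SF2/J and 0.49 in B2KO, and that of the 61 falls was −1.15, −0.68, −0.88 and −0.56. Because the genes were picked on the FVB values, those values run high, and the medians are a description. For Postn the changes were 2.63 in FVB, 1.94 in C57BL/6, 2.44 in B6129SF2/J and 1.52 in B2KO, and none of the differences passed.

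Rad51b was the clearest difference. Its change was 4.21 in FVB against 0.17 ± 0.48 in C57BL/6 and −0.01 ± 0.47 in B6129SF2/J, differences of 4.05 ± 0.68 (limma adjusted p = 0.00105) and 4.23 ± 0.67 (0.000440). In C57BL/6 hearts the probe set lay between −3.06 and −1.63 untreated and between −2.82 and −1.68 treated, dim in both groups. In B2KO the change was 1.98 ± 0.50 (0.0888), and the difference from FVB, 2.23 ± 0.70, did not pass (0.699). Without the 3 B2KO arrays that stood apart the change in B2KO was 2.38 (limma adjusted p = 0.0275).

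For 4 more genes the change was higher in FVB than in C57BL/6 past the threshold. Apln, the apelin peptide, which acts on the heart and its vessels, rose by 1.22 in FVB and differed by −0.38 in C57BL/6, a difference of 1.60 ± 0.36 (limma adjusted p = 0.0111). Untreated FVB hearts had an Apln median of 2.14 and untreated C57BL/6 hearts 3.33, while the treated medians were 3.37 and 2.95. The cadherin Fat4 differed between the lines by 1.83 ± 0.40, the orphan receptor Gpr162 by 1.59 ± 0.39 and Cfi, complement factor I, by 1.89 ± 0.51. The Fat4 rise in FVB itself, 1.20 ± 0.29, held in 8 of 21 fits that leave out 1 array, with a highest adjusted p of 0.0776 without untreated replicate 2.

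In the other direction Hbegf fell by 1.18 in FVB and differed by 0.41 in C57BL/6 (difference −1.59 ± 0.38, limma adjusted p = 0.0162), Fah, the last enzyme of tyrosine breakdown, fell by 1.14 against a difference of 0.12, and Inmt fell by 1.46 against −0.17. Dusp5, a phosphatase of ERK kinases, rose in both lines, by 1.17 in FVB and 2.58 in C57BL/6, a difference of −1.41 ± 0.40 (0.0495). Decr1 was at −0.94 against 0.10 (difference −1.04 ± 0.29, 0.0470). Of the 4 alternatives or, for brighter genes, 5 that were run on these differences, Rad51b, Apln, Fat4 and Hbegf passed in each; Fah, Gpr162 and Cfi missed in 1, and Inmt, Decr1, Dusp5 and the unnamed transcript 4930481A15Rik, whose difference was −1.69, in 2 of 5. In a fit of FVB and C57BL/6 arrays alone Cfi, Gpr162, Decr1 and Dusp5 missed, with the poorly correlated B2KO array kept Inmt, Decr1, Dusp5 and Fah did, with treated replicate 2 Inmt and 4930481A15Rik did, and after quantile normalization 4930481A15Rik did. Against B6129SF2/J the second gene was 2900052N01Rik, a clone transcript, which rose by 1.28 in FVB and by 4.15 in B6129SF2/J.

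**Figure D5:**
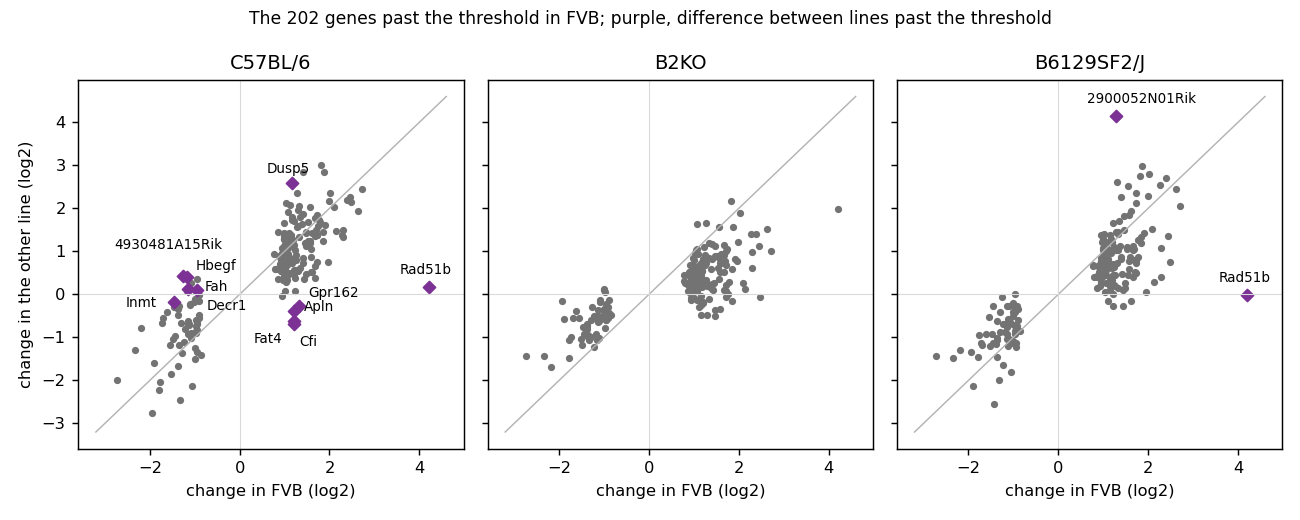
Each point is 1 of the 202 genes called in FVB, with its change in FVB across and its change in C57BL/6, B2KO or B6129SF2/J upward, in log2 units; the grey line marks equal change, and purple diamonds mark genes whose difference between the lines passed. In the C57BL/6 panel 11 genes are marked, in the B2KO panel none and in the B6129SF2/J panel 2.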

How the data were processed

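RNA of whole mouse hearts was hybridised to arrays of 45101 probe sets, from 10 µg of total RNA per sample. The authors deposited 1 intensity per probe set and array on a linear scale, and GCRMA is the method named per the submitters' processing notes, its version not given in the sources used here; background correction and summary of probes were done before deposit, and every array's median is 1. Log2 was taken of these deposited intensities with no pseudocount. The number of arrays limits the precision.

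Symbols came from the platform annotation and were updated by gene number through RefSeq (GRCm38.p6; 99.4% matched). The 64 control probe sets, 932 with several symbols and 9160 with none were left out. Groups came from the labels. Values were fitted with limma 3.58.1 (lmFit, eBayes) in R 4.3.3, two-sided, with Benjamini-Hochberg adjustment over 34945 probe sets and a threshold of 0.05. Differences between lines came from 1 fit over 8 groups, without treated FVB replicate 2 and 1 B2KO array whose median correlation was under 0.7, with 1 pair of B2KO arrays correlated above 0.9999 averaged. On simulated data with 34945 probe sets, 4% of changes of 0.5 log2 units, 52% of changes of 1 and 98% of changes of 2 were found, and 6 unchanged probe sets were called. The changes were placed only in probe sets above the array median before treatment. Errors were drawn independently, without effects shared by an array, so dim genes and arrays that stand apart are not covered.

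Genes were named by rule: the 15 largest rises and the 15 largest falls that passed in every fit leaving out 1 array (clone names passed over), up to 5 members of each list, the largest differences between lines, and a fixed set of genes given whatever their values; further members of a list are given where its count is described. T cell and lung genes, Myl2, H2-K1, and Lox, the Tgfb ligands, macrophage and erythroid genes that did not pass were named after their values were seen. So were the list members given for a call on a dimmer probe set than the one read. The members and lists were chosen with earlier results of these data known. Same-numbered arrays were not paired (9 pairs, deviations correlated at −0.189 to 0.309, above 0.1 in 2). Some genes are not reported here. The alternatives tried were other scalings, filters on dim probe sets, log2(value + 1), array weights, other moderation, other sets of arrays, averaged probe sets and the replicate number as a block.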

Additional observations from a re-analysis of the deposited data

Results flagged for a closer look

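Untreated replicate 10 lay far from the other 9 untreated FVB hearts in 7 of 92 values examined, where chance marks about 1 value in 20. Of these, 4 describe the array, and no other array measure was examined. The 3' minus 5' difference of Gapdh was 2.06 and that of actin was 4.18. The distance from FVB over strain markers was 0.886, and the median correlation with all other arrays of the series was 0.903. The other 3 were genes, out of 88 examined, by count no more than chance marks. Prelp read 3.02 on that array against 4.49 to 5.66 on the others, Pi16 read 6.05 against 3.06 to 4.61, and Myh7 read 10.32 against 5.76 to 8.10.

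The response to isoproterenol differed from that in C57BL/6, by limma's test of the difference, at 11 of the genes called in FVB. The differences, FVB minus C57BL/6 in log2 units, were 4.05 for Rad51b, 1.89 for Cfi, 1.83 for Fat4, 1.60 for Apln and 1.59 for Gpr162. They were −1.69 for 4930481A15Rik, −1.59 for Hbegf, −1.41 for Dusp5, −1.30 for Inmt, −1.26 for Fah and −1.04 for Decr1. Against B6129SF2/J the differences were 4.23 for Rad51b and −2.88 for 2900052N01Rik. The 3 comparisons share the FVB arrays, so they are not independent of each other.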

How the results depend on the processing

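Over probe sets, 321 were called for treatment in FVB. The count was 125 with treated replicate 2, 957 after quantile normalization, 544 with arrays centred on the brighter probe sets, 764 with array weights and 529 in the fit over 8 groups. With the replicate number as a block it was 199; the numbers were not found to pair the arrays, and no array correlated best with its own number. Leaving out 1 array gave 243 to 396. In alternatives chosen after seeing the data it was 205 without treated replicates 9 to 12, which leaves 7 treated arrays, and 286 without treated replicates 1 and 6. The other counts were within 1.5 times the main one. Against C57BL/6, 441 became 671 with treated FVB replicate 2, 243 with the poorly correlated array kept, 1162 after quantile normalization and 246 with 4 groups alone. Against B6129SF2/J, 9 became 5, 2, 37 and, for brighter probe sets, 2. Against B2KO it was 0 throughout, also without 3 B2KO arrays that stand apart. Of 1109 values of named genes under these settings 992 kept direction and side of the threshold, 108 lost the call (37 with treated replicate 2, 21 with the block, 19 without treated replicates 9 to 12), 9 gained it and none reversed; dim genes have no value under the filters. The median over all probe sets was −0.09 as deposited, −0.02 after quantile normalization and −0.16 after centring. Signal over background limits genes near or under the array median.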

Other observations

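3 further groups of genes were drawn up after the values were seen, so their counts are descriptions. Among 22 measured genes of branched-chain amino acid breakdown none rose and 3 fell, where 0.335% of all genes fell. Negative differences numbered 20 and the median was −0.37, where the median over all genes was −0.08. Bckdha, a subunit of the dehydrogenase that commits these amino acids to breakdown, went from 5.82 to 6.99 (median 6.27) to 4.70 to 6.29 (median 5.33), a fall of 0.96 (SE 0.23; limma adjusted p = 0.0271). Dbt, another subunit of that complex, fell by 0.91 (SE 0.21; 0.0251), and Ivd, which acts on the leucine branch, by 1.12 (SE 0.25; 0.0192). Of the 21 fits that leave out 1 array, Bckdha held in 15, Dbt in 17 and Ivd in all.

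Of 15 genes of hypoxia and angiogenic ligands 2 rose and 1 fell, with a median of 0.18. Egln3, an oxygen-sensing hydroxylase, rose by 1.35 ± 0.27 (limma adjusted p = 0.00587), from a median of 5.54 (4.35 to 6.57) to 6.82 (6.20 to 7.78). Apln rose as given above. Angpt1, a ligand that steadies vessels, fell by 1.36 (SE 0.24; 0.00169), from a median of 4.06 to 2.59. Of 10 melanocyte genes Dct and Mlana rose, Mlana by 1.29 ± 0.27 (limma adjusted p = 0.0106) from a median of 2.72 to 3.90, and the median of the list was −0.01.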
